A study of Mus musculus with 12 samples.

Results

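The 10 Trim genes described here, Trim21, Trim68, Trim6, Trim34a, Trim5, Trim12a, Trim12c, Trim30b, Trim30a and Trim30d, lie inside the class I odorant receptor cluster of mouse chromosome 7. They were taken from the 44,930 genes of the deposited table by symbol, whatever their values, and all 10 were found. Ribodepleted total RNA of the olfactory mucosa, the nasal lining with the sensory neurons of smell, was sequenced with a stranded kit from 12 male mice at postnatal day 30 on a mixed 129S6;C57BL/6J background. The groups were 6 wildtype animals and 6 animals with the deletion named delta eB, which takes away 1,155 bp of chromosome 7 (102,847,692 to 102,848,846), an enhancer of class I receptor genes. The labels give no litter or founder line and do not say whether the deletion was on both chromosomes.

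The cluster holds the class I receptors, the group of odorant receptors that resembles those of fish, as a run of small genes with a few unrelated genes between them. Trim genes encode tripartite motif proteins, in which a RING domain that can attach ubiquitin is followed by a B-box and a coiled coil, often with a C-terminal SPRY domain that binds the target. Several members act in innate defence against viruses and are transcribed in response to interferon in other tissues.

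The 10 genes sit in 3 places. Trim21 (chr7:102557921-102565486, minus strand, GRCm38) and Trim68 (chr7:102677582-102687327, minus strand) lie alone between receptor genes, 282 kb and 160 kb from the deletion at lower coordinates. The other 8 form an uninterrupted run at higher coordinates, from Trim6 (chr7:104218793-104235152, plus strand), 1370 kb from the deletion, to Trim30d (chr7:104470014-104507849, minus strand), 1621 kb away. All 10 are annotated as protein coding in GENCODE M21, and their exons have a combined length of 2592 bp (Trim34a) to 7527 bp (Trim30b).

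Depth ran from 13,152,662 gene reads in wildtype 2 to 23,059,835 in eB deletion 3. Wildtype 2 had 11.02% of its reads on the predicted gene Gm10800 and eB deletion 4 had 2.38%, against at most 0.554% in the other 10 libraries. As a check of the labelled tissue, all 10 listed markers of olfactory neurons, such as Omp and Cnga2, were above the filter on low values. Their normalized counts summed to 159,730 to 191,558 in wildtype and to 166,802 to 205,528 in deletion animals. The deleted element overlaps no gene of the table, so that no RNA value checks the genotype labels.

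The first question was which of these genes the mucosa expressed. Divided by exon length, the 10 genes spread over a wide range of levels, and 5 of them passed the filter of a normalized count of at least 10 in 6 or more libraries. Trim12c was highest, with a median over all 12 animals of 95.2 normalized counts per kb of exon (77.5 to 111). Mouse TRIM12C belongs to the group of proteins related to primate TRIM5, which binds the capsids of incoming retroviruses. Trim68, which encodes a ubiquitin ligase described as a partner of the androgen receptor in human cells, followed at 54.3 (46.0 to 56.9). Trim21, the gene of the cytosolic antibody receptor that directs antibody-bound virus to degradation, was at 45.9 (35.5 to 53.1). The range of Trim12c did not overlap that of Trim68 on the same per-kb scale. Trim68 and Trim21 overlapped in range, although Trim68 was the higher of the pair in 11 of 12 animals.

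Trim34a, whose human counterpart acts together with TRIM5 on retroviral capsids, had a median of 14.7 normalized counts per kb (10.02 to 19.4). Trim30a, which in mice restrains Toll-like receptor signalling by promoting the loss of the adaptors TAB2 and TAB3, had 10.5 (7.02 to 13.5). Both lay below the whole range of Trim21, and their own ranges overlapped, with Trim34a the higher in 12 of 12 animals. The other 5 genes had medians between 0.164 (Trim12a) and 0.869 (Trim6) per kb, and their ranges overlapped one another.

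**Figure D1:**
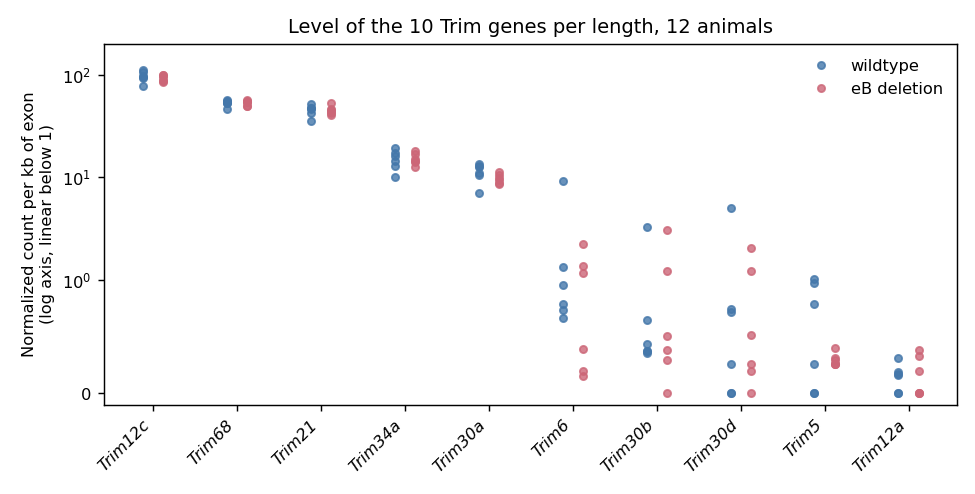
Level of the 10 Trim genes in each of 12 animals, as normalized count per kb of exon on a log axis that is linear below 1. Blue points are wildtype and red points eB deletion animals. Trim12c stands highest at 77.5 to 111 per kb, and the 5 genes on the right stay under 10.

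None of the 5 genes that passed the filter differed between the genotypes beyond the spread between animals. This is also the background of the comparison, since limma called 0 of 19,100 genes (0%) at an adjusted p of 0.05. On reads recovered from the values, edgeR called 0 genes and DESeq2 22, none of them one of the 5 Trim genes above the filter. The Trim genes under the filter were not in these fits. At an unadjusted p under 0.05, 0 of the 5 Trim genes passed, against 5.64% of all genes. Of the 5, 2 had lower and 3 higher values in deletion animals, and their median log2 fold change was 0.0075. Of all genes tested 48.3% were lower, and their median was 0.0038. The split of the 5 depended on scaling, with 3 lower under TMM scaling and 5 lower with edgeR. Over all 12 animals the groups were apart for none of the 5, and for 0.293% of all genes. In bulk tissue, fewer cells of a type and less RNA per cell cannot be told apart.

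Trim21 had normalized counts from 132 to 191 in wildtype (median 174) and from 152 to 197 in deletion animals (median 166). The groups overlapped, the lowest value being that of wildtype 4 and the highest that of eB deletion 3. Means were 168 ± 20.3 (wildtype) and 168 ± 15.8 (deletion; SD over 6 animals), and the log2 fold change was 0.010 ± 0.096 (SE; limma adjusted p = 0.998). The 95% interval of this log2 fold change ran from -0.19 to 0.21, which is a change between -12.6% and 16.0%.

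Trim68 was the steadiest of the 10 genes, with a coefficient of variation of 7.08% in wildtype and 6.03% in deletion animals. Its normalized counts ran from 160 to 198 in wildtype (median 187) and from 172 to 198 in deletion animals (median 189). All deletion values fell inside the wildtype range except the highest, which exceeded it by less than 1 count. The log2 fold change was 0.0075 ± 0.076 (SE; 95% interval -0.15 to 0.17; limma adjusted p = 0.999), with a sign that turned under TMM scaling and with edgeR. This gene is the nearest of the 10 to the deleted element.

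In the run at higher coordinates, Trim12c had 290 to 414 normalized counts in wildtype (median 360) and 316 to 371 in deletion animals (median 344). All 6 deletion values lay within the wildtype range, and 4 of them lay below the wildtype mean on the log2 scale. The log2 fold change was -0.060 ± 0.082 (SE; 95% interval -0.23 to 0.11; limma adjusted p = 0.969).

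Trim34a ranged from 26.0 to 50.2 normalized counts in wildtype (median 39.4) and from 32.6 to 46.6 in deletion animals (median 38.2). Again every deletion value lay inside the wildtype range. The log2 fold change was 0.031 ± 0.17 (SE; 95% interval -0.32 to 0.38; limma adjusted p = 0.996), and 18 to 52 reads per library stood behind it.

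Trim30a had the largest difference of the 5. Its normalized counts were 28.9 to 55.6 in wildtype (median 47.9) and 35.3 to 45.9 in deletion animals (median 39.7), and 5 of 6 deletion animals lay below the wildtype mean on the log2 scale. Wildtype 2 had the lowest value of all 12 animals, and the groups overlapped with it and when only it was left out. They did not overlap without wildtype 2 and eB deletion 4, the lowest wildtype value being 43.6 and the highest deletion value 42.8. The log2 fold change was -0.18 ± 0.16 (SE; 95% interval -0.52 to 0.16; limma adjusted p = 0.946). Without wildtype 2 it was -0.31 ± 0.13 (SE; limma adjusted p = 0.875). With wildtype 2 and 5 and eB deletion 1 and 4 left out, the 4 libraries richest in Gm10800, it was -0.35 ± 0.16 (SE; limma adjusted p = 0.848). The groups did not overlap in this setting either. Groups come apart more easily with fewer animals. The share of all genes that were apart in these 2 settings was not counted, so the separation is not read as a result about Trim30a. Without wildtype 2, without wildtype 2 and eB deletion 4, and without the 4 libraries, Trim30a had an unadjusted limma p under 0.05. So had 1040, 988 and 1100 of 19,100 genes in these settings. Over all 22 alternatives the log2 fold change of Trim30a lay between -0.35 and -0.12, with adjusted p from 0.848 to 1.00 by limma, edgeR or DESeq2. Wildtype 2 was also the lowest wildtype animal for Trim12c and Trim34a, and the part of its reads on Gm10800 in these values was not tested.

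**Figure D2:**
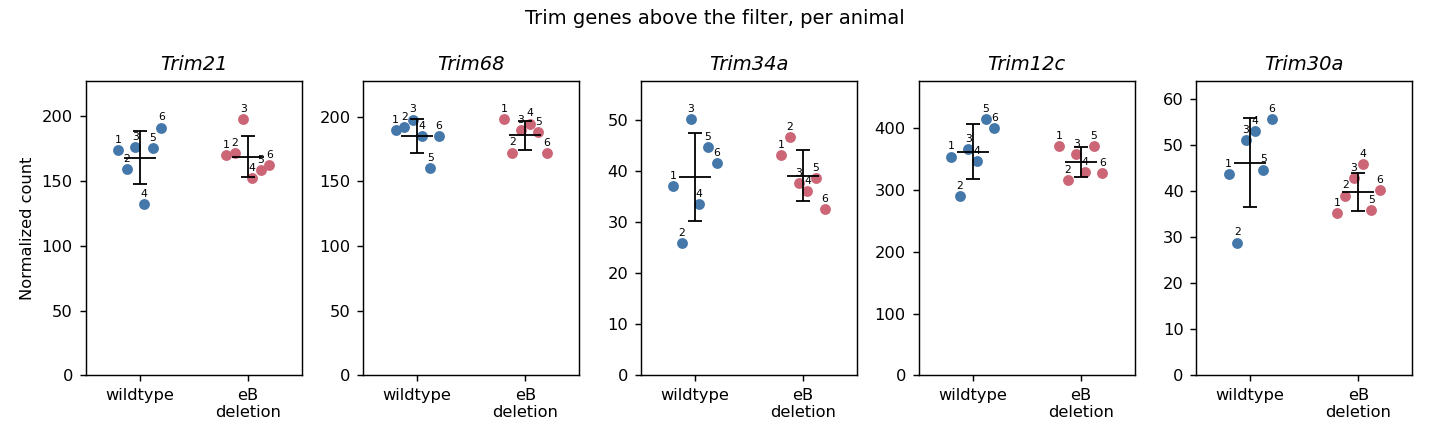
Normalized count of the 5 Trim genes above the filter, one panel per gene, with each animal as a point numbered by its replicate. Horizontal bars and whiskers give mean and SD of 6 animals per group. The groups overlap in all 5 panels, and wildtype 2 is the lowest animal for Trim34a, Trim12c and Trim30a within its group.

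The remaining 5 genes, Trim6, Trim5, Trim12a, Trim30b and Trim30d, were near the limit of detection. Together they had 216 reads over all 12 libraries, of which 63 came from wildtype 2 and 41 from eB deletion 4, whereas each of the other 10 libraries held 4 to 19. Trim6, which in human cells makes unanchored ubiquitin chains that activate a kinase of the interferon pathway, had 31 reads in wildtype 2, 10 in eB deletion 4 and 1 to 7 in the others. Trim30b had 17 reads in wildtype 2 and 21 in eB deletion 4, against 0 to 8 elsewhere. Trim30d had 13 and 7 reads in these libraries and 0 to 4 elsewhere. The high libraries were thus those with the largest shares on Gm10800, 1 in each genotype. They also had a read on the most genes of the whole table. These were 42,505 genes in wildtype 2 and 39,082 in eB deletion 4, against 29,229 to 33,674 in the other libraries. What joined these readings was not tested. Trim5, named after the primate capsid sensor, had 18 reads in all and at most 4 in any library. Trim12a had 10 reads in all, and 5 libraries had none. At this depth no difference between genotypes was detectable for these 5 genes.

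**Figure D3:**
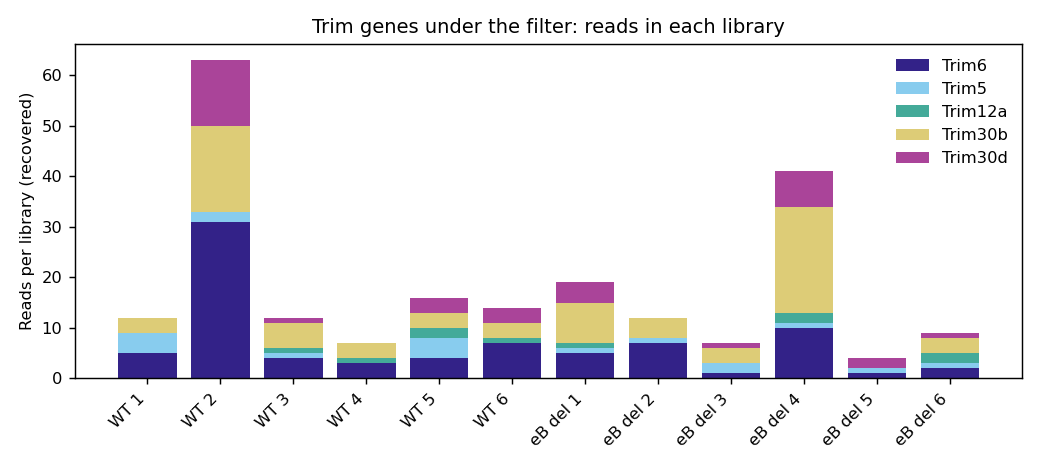
Reads of the 5 Trim genes under the filter, stacked by gene, in each of the 12 libraries (WT, wildtype; eB del, eB deletion). Wildtype 2 with 63 reads and eB deletion 4 with 41 stand above the other libraries, which hold 4 to 19.

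Several genes of the run at higher coordinates are close paralogs, and the question was how far reads can be assigned to one of them. Every stretch of 50 bases in the GENCODE M21 transcripts of a gene was looked up in the transcripts of all other genes. For genes other than the Trim genes of this cluster, both strands were searched. Of Trim34a, 59.7% of such stretches recurred in another gene, 39.8% in Trim34b, a neighbour outside the list of 10, and 20.2% in Gm47248. The strand of the matches in Gm47248 was not recorded. Of Trim12c, 33.7% recurred, 24.2% in Trim5 and 6.38% in Trim12a. Trim30a and Trim30d shared 5.98% of the stretches of the former. The share was 0.216% for Trim21 and 0 for Trim68. How the counting treated reads that match several genes is not given in the sources used here, so that the values of Trim34a, Trim12c, Trim5 and Trim12a are less certain than those of Trim21 and Trim68. Trim34b, chosen for this overlap after its values were seen, had 24.1 to 41.7 normalized counts in wildtype and 24.1 to 40.0 in deletion animals, with a log2 fold change of -0.11 ± 0.17 (SE; limma adjusted p = 0.973). Its groups overlapped, as those of Trim34a did.

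The promoters of 7 of these 10 genes share a feature that the choice of the genes did not use. RefSeq promoter windows on GRCm38.p6, 250 bases before to 50 after an annotated start, were available for all 10 genes, with 11 windows in total. They were searched on both strands for GAAANNGAAA, the core of the interferon-stimulated response element to which interferon-activated transcription factors bind. The motif was found in 8 of 11 windows, belonging to 7 of 10 genes, against 3.44% of the 32,851 windows of all genes. These windows are not independent, since those of Trim5, Trim12a and Trim12c are near-identical, as are those of Trim30a and Trim30d. The count thus holds alike sequences more than once. Of 22 windows of the interferon response genes listed below, 59.1% held it, and of 109 windows of class I receptor genes 4.59%. A match describes the letters only. The stretches around the match are shown to let the promoters be compared, with the match, which in all but Trim21 is on the opposite strand and reads TTTCNNTTTC, in capitals.
Trim21 (chr7:102565453-102565499, minus strand, overlapping matches): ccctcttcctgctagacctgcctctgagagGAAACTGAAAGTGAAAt
Trim34a (chr7:104244437-104244486, plus strand): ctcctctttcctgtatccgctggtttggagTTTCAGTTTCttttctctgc
Trim5 (chr7:104288131-104288185, minus strand): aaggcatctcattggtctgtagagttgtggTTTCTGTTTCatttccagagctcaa
Trim12a (chr7:104315466-104315515, minus strand): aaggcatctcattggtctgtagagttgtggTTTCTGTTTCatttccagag
Trim12c (chr7:104353354-104353408, minus strand): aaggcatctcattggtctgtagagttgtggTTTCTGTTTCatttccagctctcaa
Trim30a (chr7:104465205-104465259, minus strand): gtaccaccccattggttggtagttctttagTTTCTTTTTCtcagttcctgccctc
Trim30d (chr7:104507866-104507920, minus strand): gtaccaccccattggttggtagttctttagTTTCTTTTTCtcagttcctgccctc

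Among these stretches, Trim5, Trim12a and Trim12c were alike up to the bases after the match, and Trim30a and Trim30d were identical. The windows were also aligned locally, which keeps only the best-matching part of each. There, Trim5 and Trim12a were identical at 241 of 241 aligned positions, Trim5 and Trim12c at 93.9% of 280 and Trim30a and Trim30d at 93.9% of 294. Trim5 and Trim12a were both near the limit of detection, with 18 and 10 reads in all. In 2 other pairs the levels in the mucosa were far apart. Trim12c had 201 to 485 reads per library and Trim5 had 0 to 4, and Trim30a had 20 to 60 reads where Trim30d had 0 to 13. Because reads of near-identical exons may be split by the counting, these contrasts within a pair carry that uncertainty.

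The windows of the gene of highest level and of a gene without the motif are printed up to 30 bases past the annotated start. The capitals again mark the match in Trim12c, and Trim68 has none in its window.
Trim12c (chr7:104353320-104353599, minus strand): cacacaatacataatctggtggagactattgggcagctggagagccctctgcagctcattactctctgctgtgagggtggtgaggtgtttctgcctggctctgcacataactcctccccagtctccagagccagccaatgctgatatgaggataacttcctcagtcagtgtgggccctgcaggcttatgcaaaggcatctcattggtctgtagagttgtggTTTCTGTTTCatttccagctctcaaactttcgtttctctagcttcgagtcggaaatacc
Trim68 (chr7:102687298-102687577, minus strand): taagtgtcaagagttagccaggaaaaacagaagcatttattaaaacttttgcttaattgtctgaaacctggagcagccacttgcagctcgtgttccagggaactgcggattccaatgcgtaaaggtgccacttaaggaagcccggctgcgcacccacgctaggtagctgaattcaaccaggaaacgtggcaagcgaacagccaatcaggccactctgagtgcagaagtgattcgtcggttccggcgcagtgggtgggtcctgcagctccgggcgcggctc

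The next comparison set the Trim genes beside the receptor genes around them, which asks whether the deletion was followed by lower RNA of every gene in the neighbourhood. Of 30 receptor genes within 100 kb of a listed Trim gene, 25 passed the filter, and 22 of these had lower values in deletion animals, against 48.3% of all genes. This was not particular to the neighbourhood. Of the other class I receptor genes, 95 passed the filter and 89 of these were lower, with a median log2 fold change of -0.24. The neighbouring receptor genes had a median log2 fold change of -0.28, where that of the 5 Trim genes was 0.0075. The 95% intervals of Trim21, Trim68 and Trim12c did not hold -0.28. Those of Trim34a (-0.32 to 0.38) and Trim30a (-0.52 to 0.16) did. The receptor median itself ran from -0.33 to -0.19 with 1 animal left out, and the interval of Trim12c held the latter value. Of the receptor genes directly beside Trim21, Olfr549 at -0.10 was inside the interval of Trim21 and Olfr550 at -0.20 was outside. No neighbouring receptor gene passed over all genes in limma (adjusted p from 0.754 to 1.00), and 6 had an unadjusted p under 0.05 with lower values, against 2.82% of all genes. Around Trim21 and Trim68, 16 of 18 receptor genes were lower, with a median of -0.33. Around the run from Trim6 to Trim30d, 6 of 7 were lower, with a median of -0.16. The tested Trim genes of this run were at -0.18 (Trim30a), -0.060 (Trim12c) and 0.031 (Trim34a), each with a 95% interval that holds -0.16.

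**Figure D4:**
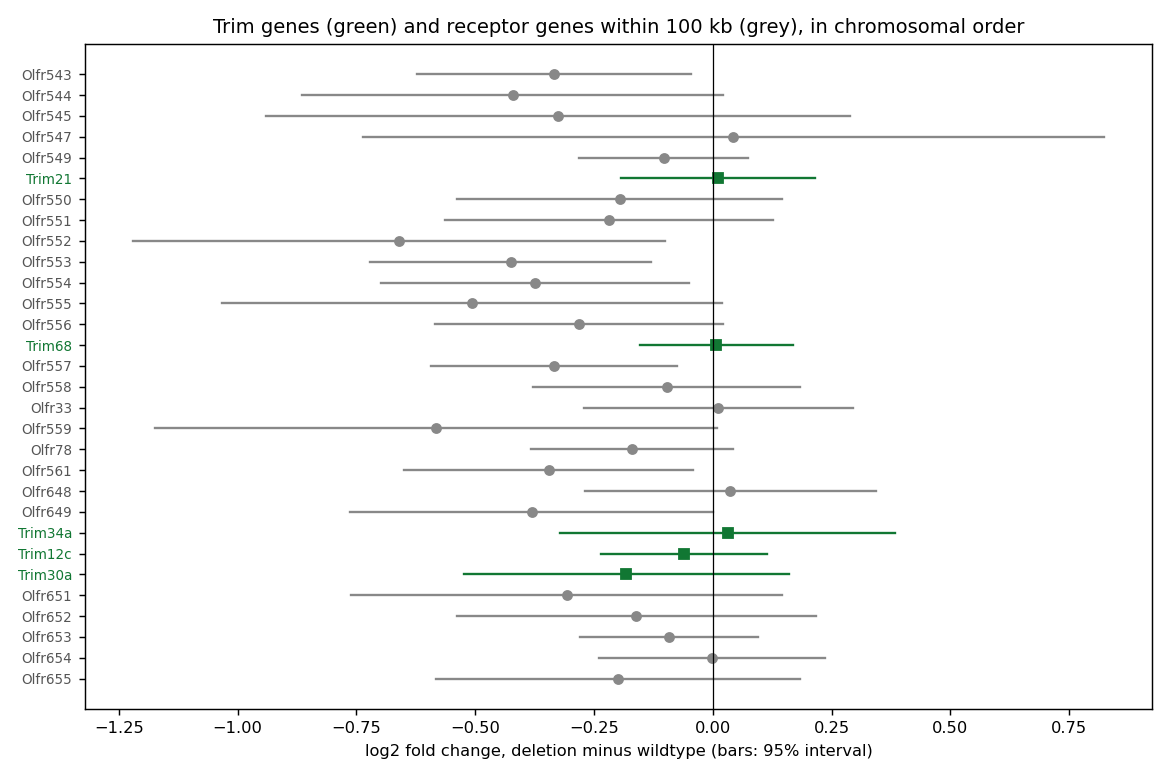
Log2 fold change of deletion against wildtype with its 95% interval, for the 5 Trim genes above the filter (green squares) and the 25 receptor genes within 100 kb of a listed Trim gene (grey circles), in chromosomal order from top to bottom. Of the receptor genes 22 lie left of 0, and the Trim genes lie between -0.18 and 0.031.

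Direct neighbours were compared within each animal, as the log2 ratio of a Trim gene to the nearest tested receptor gene on each side of its place. Trim68 lies 8.58 kb from Olfr557, which had 102 to 158 normalized counts in wildtype and 89.1 to 127 in deletion animals. The log2 ratio of Trim68 to Olfr557 averaged 0.48 ± 0.25 (wildtype) and 0.82 ± 0.23 (deletion; SD over 6 animals). The ratio was higher by 0.34 ± 0.14 (SE) in deletion animals, 5 of 6 of which lay above the wildtype mean (exact two-sided permutation p = 0.0368, 0.221 adjusted over 6 pairs). It thus did not pass the adjustment. On its other side, 4.31 kb away, the log2 ratio of Trim68 to Olfr556 was higher by 0.29 ± 0.18 (SE; exact permutation p = 0.147, adjusted 0.303).

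For Trim21, the log2 ratio to Olfr549, 2.08 kb away, averaged -0.41 (wildtype) and -0.30 (deletion), a difference of 0.11 ± 0.13 (SE; p = 0.426 by exact permutation, 0.512 after adjustment). The ratio to Olfr550, 5.96 kb away, was higher by 0.21 ± 0.18 (SE; exact permutation p = 0.277, adjusted 0.416). For the run the tested genes nearest its ends were used. The log2 ratio of Trim34a to Olfr649, 48.5 kb away, was higher by 0.41 ± 0.27 (SE; exact permutation p = 0.152, adjusted 0.303), and 6 of 6 deletion animals exceeded the mean of the wildtype. The log2 ratio of Trim30a to Olfr651, 84.9 kb away, was higher by 0.13 ± 0.31 (SE; exact permutation p = 0.680, adjusted 0.680). Thus all 6 ratios were higher in deletion animals, 0 of them past the adjusted threshold. The ratios share Trim genes and the same 12 animals and are not independent of each other. Without the 4 libraries richest in Gm10800 the difference for Trim68 and Olfr556 turned to -0.029 and that for Trim30a and Olfr651 to -0.046. The sign of the ratio of Trim30a to Olfr651 turned, to -0.0085, without wildtype 2 and, to -0.032, without eB deletion 4. With 1 animal left out, the log2 ratio of Trim34a to Olfr649 was higher by 0.20 to 0.59 (exact permutation p from 0.0022 to 0.314). The lowest p was that without wildtype 3, picked from these fits and not adjusted, so it is not read as a result. Across all alternatives the difference for this pair ran from 0.18 to 0.59, and the exact p reached 0.40.

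Other genes of the same interval that are neither receptor nor on the Trim list gave little to compare, since 6 of 50 passed the filter. They included the beta-globin genes Hbb-bs and Hbb-bt, Olfm5 and Trim34b, and 4 of 6 were lower, with a median log2 fold change of -0.084. This median was not stable, at 0.10 without eB deletion 5 and at -0.39, with 5 of 6 lower, without the 4 libraries richest in Gm10800. None passed over all genes in limma (adjusted p from 0.949 to 1.00).

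The Trim genes outside the list were compared as a family. They lie elsewhere in the genome or, as Trim34b and Trim30c, in the same interval, so that Trim34b was counted here and among the genes of the interval. Of 58 such genes, 36 passed the filter. There were 18 lower and 18 higher ones, and the median log2 fold change was -0.0014. The most abundant were Trim66, at 6195 ± 589 normalized counts (wildtype) and 6439 ± 441 (deletion; SD over 6 animals), Trim2 and Trim44. No gene among these was called by limma (adjusted p from 0.880 to 1.00), and 0 had an unadjusted p under 0.05. The smallest p values were those of Trim15 (0.30 ± 0.14, SE), Trim27 (-0.11 ± 0.07) and Trim33 (0.08 ± 0.05), given as log2 fold changes.

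The interferon pathway was followed through its signalling genes and its targets. Of 27 genes for sensing, receptors and signal transduction, all passed the filter. Of these 15 were lower and 12 higher, and the median log2 fold change was -0.0037. Jak1, a kinase bound to the interferon receptors, was at 3133 ± 234 normalized counts (wildtype) and 3188 ± 140 (deletion; SD over 6 animals). Its log2 fold change was 0.03 ± 0.06 (SE). Ube2n, a ubiquitin-conjugating enzyme that works with RING ligases, was at -0.00042 ± 0.06, Map3k7, the kinase partner of TAB2 and TAB3, at 0.10 ± 0.05, Tlr7 at -0.28 ± 0.22 and Ifngr1 at -0.11 ± 0.09. No gene of the group was called by limma (adjusted p from 0.878 to 1.00), and 1 of 27, Map3k7, had an unadjusted p under 0.05, where 5.64% of all genes did.

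Of 30 interferon response genes, 28 passed the filter. There were 21 lower and 7 higher ones, their median log2 fold change being -0.20 (-0.11 without the 4 libraries richest in Gm10800), against 48.3% of all genes lower. None passed over all genes in limma (adjusted p from 0.682 to 0.997), while 7 of 28 had an unadjusted p under 0.05 with lower values, against 2.82% of all genes. The smallest p values were those of Ddx60, at 139 ± 20.8 normalized counts (wildtype) and 102 ± 14.7 (deletion; SD over 6 animals), and Ifi27l2a, at 592 ± 148 and 419 ± 100. Their log2 fold changes were -0.44 ± 0.12 and -0.49 ± 0.16 (SE). The most abundant members were Cmpk2 (0.02 ± 0.06), Parp14 (0.10 ± 0.08) and Ifit2 (0.03 ± 0.06). The Trim genes with the motif in their promoters that could be tested, Trim21, Trim34a, Trim12c and Trim30a, had log2 fold changes between -0.18 and 0.031.

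The mucosa also holds immune cells, in which several Trim genes are transcribed. Of 25 markers of immune cells, 19 passed the filter. Among them 12 were lower and 7 higher, and the median log2 fold change was -0.045. Summed over the list, their normalized counts ran from 4197 to 6555 in wildtype and from 4464 to 6353 in deletion animals, with none of the 25 at 0 in all libraries. Ptprc, the common leukocyte antigen, was at -0.20 ± 0.12 (SE) and Jchain, of antibody-secreting cells, at -0.64 ± 0.36, while Lyz2 was at 0.18 ± 0.16, Cd74 at 0.0015 ± 0.14 and H2-Aa at -0.09 ± 0.13. No gene among these was called by limma (adjusted p from 0.890 to 1.00), and their part in the Trim values was not tested.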

How the data were processed

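Per the submitters' processing notes, reads were aligned with STAR 2.6.0 to GRCm38.p6 and DESeq2 was used. The sources used here do not give how reads were counted, on which annotation and with which strand setting. The authors deposited a signal for each gene, a read count divided by a size factor of its library. In every column 100% of the values were whole multiples of 1 step (relative tolerance 0.001), and whole reads were recovered from it. The authors' deposited table also holds their log2 fold change with its standard error, a score (the test statistic), a p-value and an adjusted p-value.

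Genes were kept where 6 or more libraries reached a value of 10, which left 19,100. They were fitted with the trend option of limma 3.58.1 in R 4.3.3, after log2(value + 1), without covariates. P-values were adjusted by Benjamini-Hochberg over all genes, with a threshold of 0.05. On this scale the fold changes of low genes are understated. The labels name no litters, so p-values measure the spread between these animals. Run as alternatives on recovered reads of the genes kept, the test of edgeR 4.0.16 called 0 genes and DESeq2 1.42.0 called 22. None of these was a listed Trim gene above the filter. The limma procedure was tested on simulated data of 19,100 genes. It called 8 of 50 genes changed 1.2-fold, 25 of 50 changed 1.5-fold, 37 of 50 changed 2-fold and 48 of 50 changed 3-fold. There were 3 false calls. Small changes were thus mostly missed. Ratios to neighbouring receptor genes were compared with exact permutation tests over 924 assignments of animals, a test added with the data in view. Positions and exon lengths came from GENCODE M21 (44,840 of 44,930 genes matched), promoter windows from RefSeq. The Trim genes and all lists were chosen with earlier results of these data known. Genes named are all 10 Trim genes, their nearest tested receptor genes, and in other lists those of highest mean and smallest p.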

Additional observations from a re-analysis of the deposited data

Results flagged for a closer look

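Within each group of 6 animals, a Trim value is listed here if the distance to the closest other animal, as a share of the group's range, exceeded Dixon's critical value. This met 5 of 20 groups. Chance gives about 1 in 20 for normally distributed values, which counts of a few reads are not. No excess over chance is therefore read from this count. Wildtype 2 was the highest of 6 for Trim6, with 44.7 normalized counts against 6.48 in the next animal, for Trim30b, with 24.5 against 4.83, and for Trim30d, with 18.8 against 2.78. It is the library with 11.02% of reads on Gm10800 and with a read on the most genes of the table (42,505). For Trim68, wildtype 5 was the lowest of 6 with 160 normalized counts, the next being at 185. For Trim5, eB deletion 3 was the highest of 6 with 1.48 normalized counts, which were 2 reads.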

How the results depend on the processing

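In all 22 alternatives none of the 5 tested Trim genes passed over all genes, nor did any of the 10 when no filter was used. The count of genes called was 0 except for 22 by DESeq2 and 0 to 1 when 1 animal was left out (1 without wildtype 6). Signs close to 0 turned: for Trim21 at -0.0015 with edgeR and from -0.057 to 0.049 when 1 animal was left out, for Trim68 at -0.00077 with TMM scaling, -0.00067 with edgeR, -0.070 without the 4 libraries richest in Gm10800 and from -0.033 to 0.030 with 1 animal left out, and for Trim34a at -0.0094 with edgeR, -0.012 with DESeq2, -0.054 without wildtype 2 and eB deletion 4, -0.056 without the 4 libraries and from -0.075 to 0.11 with 1 animal left out. With edgeR all 5 tested Trim genes were lower, against 2 of 5. Without those 4 libraries the median of the interferon response genes was -0.11; the log2 ratio of Trim68 to Olfr556 turned to -0.029 and that of Trim30a to Olfr651 to -0.046, and to -0.17 without wildtype 2 and eB deletion 4 (-0.032 to 0.25 with 1 animal left out). The cause was not tested. The exact p of Trim68 to Olfr557 was 0.229 at most, and 9 of 16 alternatives did not keep it under 0.05. Neighbouring receptor genes kept a median between -0.33 and -0.19 with 1 animal left out, and had -0.29 within 50 kb and -0.25 within 250 kb. With a replicate block, 0 genes were called and the Trim median was 0.0075 again; same-numbered animals share only a number (correlations of deviations from -0.12 to 0.16). Precision is limited by depth for genes with under 60 reads per library.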

Other observations

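Genes of like pattern are named for the 3 Trim genes of highest mean. By the likeness measure, Pearson's r over 12 animals between log2 values after subtraction of each group mean, the genes closest to Trim12c were Cct3 (r = 0.94, Spearman's rho = 0.92), Vhl (0.93, 0.90) and Mycl (0.93, 0.92), those closest to Trim68 were Adamtsl2 (0.91, 0.75), Meox2 (0.89, 0.64) and AC153919.1 (0.87, 0.75), and those closest to Trim21 were Lrrc56 (0.92, 0.82), Ifi35 (0.88, 0.84) and AC132584.3 (0.87, 0.90). Without the 2 animals farthest from the median of the Trim gene, r lay between 0.65 (Meox2) and 0.87 (AC153919.1) for these 9 genes. At r of at least 0.8 there were 193 genes for Trim30a, 182 for Trim12c, 72 for Trim34a, 37 for Trim21 and 24 for Trim68, all from the same 12 libraries. Between the 5 tested Trim genes, r ran from -0.18 (Trim68 and Trim12c) to 0.66 (Trim34a and Trim12c).

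In the authors' deposited table, where a positive log2 fold change means higher in wildtype, Trim30a stands at 0.091, Trim12c at 0.055, Trim34a at 0.0030, Trim21 at -0.0038 and Trim68 at -0.0061. The adjusted p in the authors' deposited table is 0.999 for each of these 5. Its standard errors are smaller than those of limma, at 0.077 for Trim30a against 0.16. For Trim6 the standard error is 0.028, against 0.61 in limma without the filter. How these fold changes were scaled is not given in the sources used here, so that their sizes cannot be set against those of limma.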
